A study of Mus musculus with 6 samples.

Results

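The genes described here are 10 feedback genes of the ERK pathway: the dual specificity phosphatases Dusp1, Dusp4, Dusp5 and Dusp6, the Sprouty genes Spry1, Spry2 and Spry4, the Spred genes Spred1 and Spred2, and the ETS transcription factor Etv5. They were chosen by name, from what their products are known to do, out of 56953 genes in the table. Earlier results of these data were known when they were chosen. All 10 passed the filter on low values. The study compared mouse embryonic fibroblasts (MEFs), connective tissue cells grown from mouse embryos, of a WT line with those of a line labelled GαqKO, which the study's methods describe as a Gαq/11 knockout, by RNA sequencing of poly-A selected RNA. Both lines were grown in DMEM with fetal bovine serum, penicillin and streptomycin, with no treatment named, and each genotype had 3 libraries that the methods call biological replicates. Each genotype is a single line as far as the sources tell, so genotype and line cannot be told apart, and neither the embryonic age nor the number of founder embryos or clones is given in the sources used here. Values are normalized counts, that is, the reads counted on a gene divided by 1 size factor per library.

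ERK is the last kinase of a cascade in which RAS, RAF and MEK pass on the signal of growth factor receptors. Active ERK turns on genes whose products then act back on the cascade: dual specificity phosphatases remove the activating phosphates from ERK and related kinases, Sprouty proteins act between the receptor and RAF, and Spred proteins restrain RAS together with neurofibromin. The transcript levels of these genes are often read as a record of past ERK activity, with Dusp6, Spry2, Spry4 and the ETS factors Etv4 and Etv5 among those used, also in fibroblasts that respond to FGF or PDGF.

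The labels were checked first. Gnaq, the gene of Gαq, was not lower in the libraries labelled GαqKO: it had 1691 ± 48.5 normalized counts in WT and 1926 ± 36.0 in GαqKO (SD, n = 3 each), with a log2 fold change of 0.19 (adjusted p = 0.00212 from limma). Gna11, the gene of the closely related Gα11, had 2148 ± 29.0 in WT and 452 ± 28.7 in GαqKO (log2 fold change -2.25, adjusted p = 9.16e-13 from limma). Counts over a whole gene do not show whether the deleted part of Gnaq is transcribed, so the libraries are called by their label. Of 10 fibroblast markers 4 were higher and 6 lower in GαqKO, with summed levels of 85168 to 90765 in WT and 61602 to 64769 in GαqKO. Among those higher, Pdgfra had 17.5 to 21.9 normalized counts in WT and 2274 to 2356 in GαqKO. Thy1 was listed at 0 in 2 WT libraries, at 2.1 in the other one and at 59.0 to 76.5 in GαqKO, through which alone it passed the filter. S100a4 and Pdgfrb were higher by log2 fold changes of 1.61 and 0.23. Those lower were Col1a1 (log2 fold change -1.53), Acta2 (-1.42), Fn1 (-0.73), Col1a2 (-0.36), Vim (-0.32) and Col3a1 (-0.18). The summed level of 6 epithelial markers was 515 to 541 in WT, almost all from Cdh1 and Krt14, and 10.0 to 23.2 in GαqKO. These 2 genes were the ones tested and were lower. They passed the filter on low values only through the WT libraries, so the filter favoured that direction. With no filter 4 markers were lower, and with at least 10 normalized counts in every library 0 were. The leukocyte genes Ptprc, Adgre1 and Lyz2 lay between 0 and 6.9 in all libraries. The summed level of the 6 macrophage and leukocyte markers was 209.6 to 226 in WT and 438 to 466 in GαqKO (1 higher, 1 lower, 3 tested). Its rise came from Cd14, with 93.6 to 107 in WT and 362 to 368 in GαqKO. Cd68 was lower, with 84.6 to 104 in WT and 54.5 to 79.8 in GαqKO, and Csf1r was not called. For 5 endothelial markers the summed level was 12.6 to 22.9 in WT and 18.8 to 26.7 in GαqKO (1 tested, not called). The part of these marker differences in the results that follow was not tested. In bulk samples such as these, fewer cells of a type and less RNA per cell cannot be told apart. The libraries of one group differed by more than counting noise (chi-square per gene of 2.38 to 5.1 between pairs with known reads), so none of those compared was a second copy of another.

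Of the 10 feedback genes 9 differed between the groups at an adjusted p under 0.05 (limma, Benjamini-Hochberg adjustment over 14096 genes), 6 higher and 3 lower in GαqKO. This stands against a background in which 65.8% of all genes tested were called, 31.8% higher and 34.1% lower. The genes with the largest changes were Spry4 and Etv5, which rose, and Spry1, which fell, and these were the 3 members whose log2 fold change exceeded 1 in either direction (2 higher and 1 lower, against 10.2% of all genes tested higher, 10.5% lower and 20.7% in both directions together). The WT and GαqKO libraries of 9 members did not overlap, as was so for 69.6% of all genes tested. The median log2 fold change of the 10 was 0.25, against -0.01 over all genes tested, and the median size of the change was 0.54 against 0.39. The Sprouty genes moved in opposite directions, both Spred genes were higher, and of the phosphatases Dusp5 and Dusp6 were lower. The 10 genes lie on 10 different chromosomes. Because the median log2 fold change per chromosome ran from -0.35 to 0.32, the fits were repeated with that median removed, an alternative chosen after seeing the data, and the result is given where it matters.

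**Figure D1:**
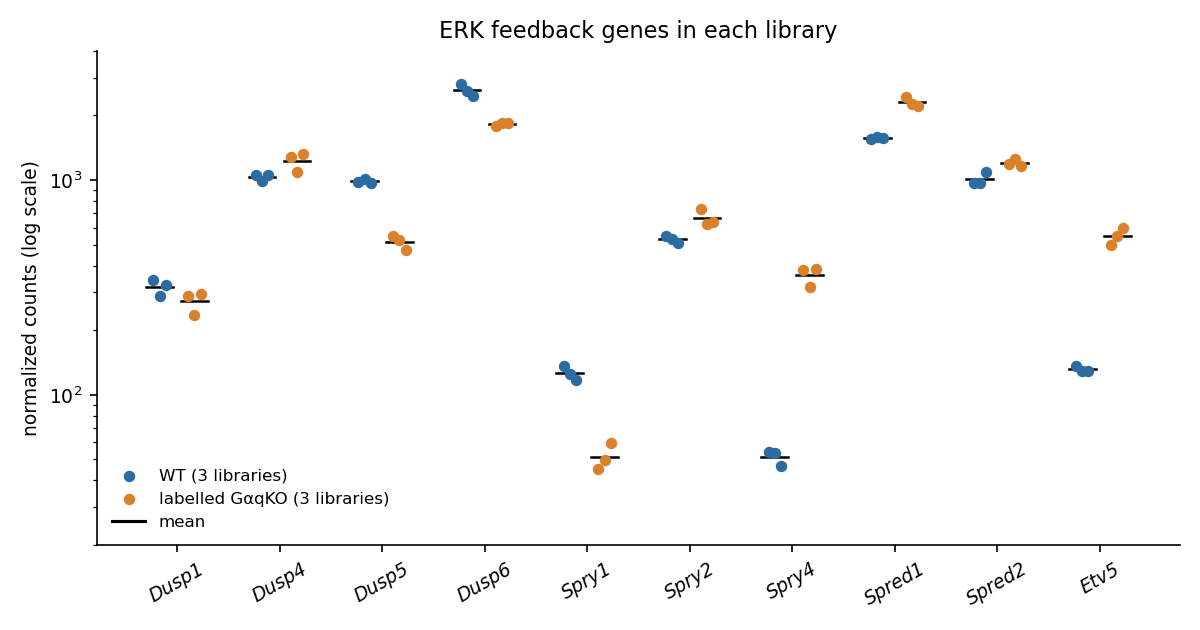
Normalized counts (log axis) of the 10 ERK feedback genes, side by side, with a point for each of the 6 libraries (WT blue, labelled GαqKO orange) and a black line for the group mean. Spry4 and Etv5 sit far higher in the libraries labelled GαqKO (317 to 385 against 46.8 to 54.3 for Spry4), Spry1 and Dusp5 sit lower, and Dusp1 is the gene whose groups overlap.

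Among the phosphatases, Dusp6 and Dusp5 fell, Dusp4 rose by a small amount and Dusp1 was not called. Dusp6, a cytoplasmic phosphatase that acts mainly on ERK (ENSMUSG00000019960.9, GRCm39 chr10:99086564-99103361, plus strand), had 2792, 2588 and 2467 normalized counts in WT replicates 1, 2 and 3 and 1780.4, 1836 and 1835 in the GαqKO replicates. Every GαqKO library lay below every WT library, and the GαqKO libraries were close together. The means were 2616 ± 164 and 1817 ± 31.8 (SD, n = 3 each), 1.44-fold lower in GαqKO, and the log2 fold change was -0.52 (SE 0.05, adjusted p = 6.26e-07 from limma). Chromosome 10 as a whole had a median log2 fold change of -0.28, and with it removed Dusp6 was lower by a log2 fold change of -0.24 (adjusted p = 0.000791 from limma), so the size depends on that choice. Other annotated genes share 23.0% of the exonic bases of Dusp6, and the strand setting of the counting is not stated, so reads in those bases cannot be assigned with certainty.

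Dusp5, a nuclear phosphatase selective for ERK (ENSMUSG00000034765.7, GRCm39 chr19:53517532-53530862, plus strand), had 976, 1010.3 and 968 normalized counts in WT and 546, 525 and 472 in GαqKO. The WT libraries differed little from each other and all lay well above the GαqKO libraries. The gene fell 1.92-fold, from 985 ± 22.4 to 514 ± 37.8, with a log2 fold change of -0.94 (SE 0.065, adjusted p = 1.94e-08 from limma), which was the largest fall among the 4 phosphatases. The predicted gene Gm50394 shares 22.4% of its exonic bases.

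Dusp4, a nuclear phosphatase that acts on ERK and on stress kinases (ENSMUSG00000031530.7, GRCm39 chr8:35274442-35287048, plus strand), had 1059.9, 992 and 1056 normalized counts in WT and 1283, 1089 and 1324 in GαqKO. The groups did not overlap, but GαqKO replicate 2 was nearer to WT than the other two were. From 1036 ± 38.1 to 1232 ± 125, the log2 fold change was 0.25 (SE 0.069, adjusted p = 0.00652 from limma). Chromosome 8 had a median log2 fold change of 0.29, and with it removed the value for Dusp4 was -0.05 (adjusted p = 0.586 from limma), so that both the call and the direction of Dusp4 depend on that choice. The call was also lost without a trend in limma's prior spread (adjusted p = 0.0577) and in DESeq2 on 5 libraries (adjusted p = 0.0749), where limma on the same libraries, without GαqKO replicate 3, gave 0.19 (adjusted p = 0.0448).

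Dusp1, a nuclear phosphatase of the immediate early genes that acts on p38 and JNK as well as ERK (ENSMUSG00000024190.8, GRCm39 chr17:26724564-26781102, minus strand), had 344, 289 and 324 normalized counts in WT and 289, 235 and 294 in GαqKO. The groups overlapped. The means were 319 ± 27.9 and 273 ± 33.0, and the log2 fold change was -0.23 (SE 0.11, 95% interval -0.46 to 0.00, adjusted p = 0.0727 from limma), which leaves both no change and a modest fall possible. Without WT replicate 2 it was -0.30 and passed the threshold (adjusted p = 0.0451 from limma), and without GαqKO replicate 2 it was -0.12 (adjusted p = 0.307 from limma).

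Dusp5 and Dusp1 are shown with the sequence before their start sites because these were the only members with any of 4 motifs searched there. The motifs were CCGGAA (called the ETS core here), the AP-1 site TGANTCA, the cAMP response element TGACGTCA and the CArG box bound by serum response factor. Both strands were searched, and the motifs are often cited at ERK-responsive genes. Shorter ETS letters such as GGAA were not searched, and the Dusp5 sequence below holds GGAA. RefSeq (GRCm38.p6) had promoter entries for 8 of the 10 members, not for Dusp4 and Spry4, with 2 start sites for Etv5, and the 250 bases before each start were read. In all 32851 such promoters the share with the motif was 12.03% for the ETS core, 6.75% for the AP-1 site, 1.55% for the cAMP response element and 1.47% for the CArG box. Capitals mark the cAMP response element of Dusp1, 143 to 136 bases before the start (chr17:26508473-26508722, minus strand), and the 2 adjacent CArG boxes of Dusp5, 82 to 73 and 72 to 63 bases before it (chr19:53528895-53529144, plus strand). No match overlapped that of another motif.
Dusp1: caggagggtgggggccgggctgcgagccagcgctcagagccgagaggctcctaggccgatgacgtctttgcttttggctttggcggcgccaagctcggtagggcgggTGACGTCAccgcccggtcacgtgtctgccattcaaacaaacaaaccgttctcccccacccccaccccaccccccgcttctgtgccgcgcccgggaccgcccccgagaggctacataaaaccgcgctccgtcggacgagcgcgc
Dusp5: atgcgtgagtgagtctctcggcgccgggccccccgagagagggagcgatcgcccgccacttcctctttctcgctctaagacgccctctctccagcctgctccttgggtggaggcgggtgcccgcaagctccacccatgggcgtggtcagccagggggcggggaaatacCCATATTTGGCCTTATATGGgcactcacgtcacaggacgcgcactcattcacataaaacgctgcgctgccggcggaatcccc

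The Sprouty genes went in opposite directions. Spry4 (ENSMUSG00000024427.8, GRCm39 chr18:38719300-38736025, minus strand), whose product inhibits receptor signalling to RAF, had 54.3, 53.4 and 46.8 normalized counts in WT and 383, 317 and 385 in GαqKO. Every GαqKO library was far above every WT library. The rise from 51.5 ± 4.1 to 362 ± 38.7 was 7.02-fold and was the largest change of the 10 genes, with a log2 fold change of 2.78 (SE 0.13, adjusted p = 3.56e-10 from limma). Spry2 (ENSMUSG00000022114.6, GRCm39 chr14:106128766-106136446, minus strand), which encodes the Sprouty protein best studied as an antagonist of FGF receptor signalling, had 547, 530.4 and 511 normalized counts in WT and 733, 621 and 640.5 in GαqKO. It rose 1.26-fold, from 529.5 ± 18.1 to 665 ± 60.1, and the log2 fold change was 0.32 (SE 0.072, adjusted p = 0.00129 from limma). Its groups did not overlap, although the GαqKO libraries were spread more widely than those of WT.

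Spry1 (ENSMUSG00000037211.13, GRCm39 chr3:37693897-37698755, plus strand), known for its role in kidney development as an antagonist of the RET receptor, had 136, 125 and 117 normalized counts in WT and 45.1, 49.7 and 59.4 in GαqKO. The libraries of the groups lay far apart. From 126 ± 9.4 to 51.4 ± 7.3 it fell 2.45-fold, with a log2 fold change of -1.28 (SE 0.16, adjusted p = 1.07e-05 from limma). Chromosome 3 had a median log2 fold change of 0.32, in the other direction, and with it removed Spry1 stood at -1.61. The fall did not pass a test against a log2 fold change of 1 (limma's treat). The predicted gene Gm42922 shares 19.0% of its exonic bases.

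The share of each of these Sprouty genes in their summed level, with normalized counts divided by the length of the merged exons in kilobases, changed accordingly. Spry3 was looked for by symbol and not matched in the table, so the shares leave it out. Spry2 gave 75.1% ± 0.7 of the summed level of the 3 genes in WT and 66.3% ± 2.2 in GαqKO (SD, n = 3 each). The share of Spry1 was 19.3% ± 0.6 in WT and 5.6% ± 1.0 in GαqKO, and that of Spry4 was 5.7% ± 0.2 and 28.1% ± 1.6. Thus Spry1 was the second Sprouty transcript in WT and Spry4 in GαqKO, while Spry2 was first in both. The summed level was 137.1 ± 6.0 per kilobase in WT and 194.7 ± 15.5 in GαqKO. With the length of the whole gene in place of the exons, the share of Spry2 was 70.4% in WT and 72.9% in GαqKO, so the direction for Spry2 depends on the length used, whereas those of Spry1 and Spry4 did not turn.

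**Figure D2:**
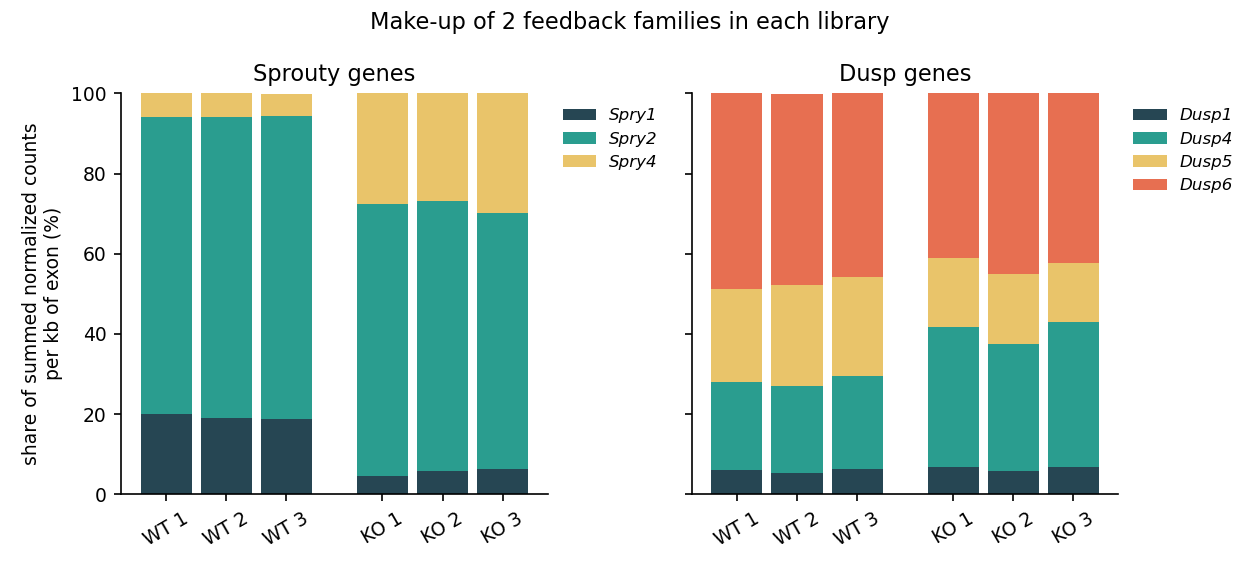
Stacked bars, 1 per library, with the percent share of each gene in the summed level per kilobase of exon of the Sprouty (left) and Dusp (right) members, where KO stands for the libraries labelled GαqKO. On average Spry4 goes from 5.7% to 28.1% of the Sprouty level and Spry1 from 19.3% to 5.6%, and Dusp4 from 22.2% to 34.1% of the Dusp level. That Dusp level itself falls from 1624.2 to 1253.4 per kilobase of exon. The log2 fold change of Dusp4 is 0.25, or -0.05 with the median of its chromosome removed.

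The Spred genes were both higher. Spred1, which recruits neurofibromin to the membrane to inactivate RAS (ENSMUSG00000027351.15, GRCm39 chr2:116951524-117018277, plus strand), had 1551, 1582 and 1564 normalized counts in WT and 2425, 2265 and 2201 in GαqKO. The WT libraries were almost equal and all GαqKO libraries lay above them. Spred1 rose 1.47-fold, from 1566 ± 16.0 to 2297 ± 115, and its log2 fold change was 0.55 (SE 0.048, adjusted p = 2.07e-07 from limma). Spred2, its close relative (ENSMUSG00000045671.18, GRCm39 chr11:19874355-19974442, plus strand), had 966, 972 and 1085 normalized counts in WT and 1183, 1252 and 1160.1 in GαqKO. The highest WT library stayed below the lowest GαqKO library. The change of Spred2 was smaller, from 1008 ± 67.0 to 1198 ± 47.9, with a log2 fold change of 0.25 (SE 0.059, adjusted p = 0.00186 from limma).

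Etv5, a transcription factor of the PEA3 group of ETS factors that is induced by FGF and ERK signalling (ENSMUSG00000013089.16, GRCm39 chr16:22200052-22259662, minus strand), had 136, 129 and 129 normalized counts in WT and 497, 550.4 and 598 in GαqKO. Its WT libraries were almost equal, and all GαqKO libraries were several times higher. It rose 4.17-fold, from 131 ± 3.8 to 548 ± 50.7, with a log2 fold change of 2.05 (SE 0.093, adjusted p = 2.61e-10 from limma). The median of chromosome 16 was -0.19, and with it removed the value was 2.24.

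The sequences before the starts of Spry1 (chr3:37639697-37639946, plus strand) and of the first start site of Etv5 (chr16:22439571-22439820, minus strand), from RefSeq (GRCm38.p6), are shown because these genes changed past the fold threshold in opposite directions and have entries. Neither held any of the 4 motifs, nor did those of Dusp6, Spry2, Spred1 and Spred2 or the second start site of Etv5, and no base is in capitals. No match says only that these letters are not in this window.
Spry1: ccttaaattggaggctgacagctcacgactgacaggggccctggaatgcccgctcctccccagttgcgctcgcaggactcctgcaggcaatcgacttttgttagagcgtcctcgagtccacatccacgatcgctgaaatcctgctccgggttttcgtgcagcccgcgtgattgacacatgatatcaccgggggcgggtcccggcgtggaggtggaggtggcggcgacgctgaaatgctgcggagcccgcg
Etv5: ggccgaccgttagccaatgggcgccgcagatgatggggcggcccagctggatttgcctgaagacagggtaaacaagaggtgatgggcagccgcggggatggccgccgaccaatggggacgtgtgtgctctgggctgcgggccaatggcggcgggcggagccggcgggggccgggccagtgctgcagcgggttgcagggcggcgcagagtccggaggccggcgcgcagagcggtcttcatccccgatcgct

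The 9 member promoters were rich in G and C, with a median of 62.4% (56.0 to 71.2%) against 52.4% for all promoters. Their median ratio of observed to expected CpG was 0.90 against 0.37 for all promoters. This was shared by genes that rose and genes that fell.

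**Figure D3:**
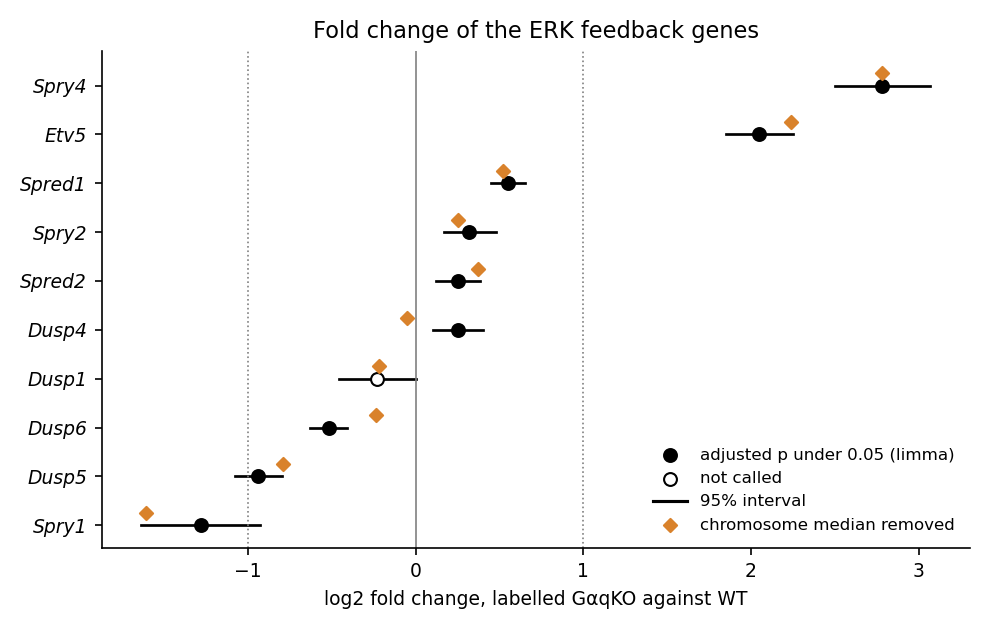
Log2 fold changes of the 10 ERK feedback genes, labelled GαqKO against WT, with black points and lines for the values and 95% intervals from limma (open where not called), orange diamonds for the values with chromosome medians removed, and dotted lines at a log2 fold change of 1 in size. Spry4 and Etv5 stand at 2.78 and 2.05, Spry1 at -1.28, and Dusp4 moves from 0.25 to -0.05 when the median of its chromosome is removed.

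Compared between genes as normalized counts per kilobase of exon, Dusp6 had the highest level of the 10 in both groups (771 ± 48.4 in WT, 536 ± 9.4 in GαqKO). In WT it was followed by Dusp5 at 397, Dusp4 at 360.0, Spred1 at 202, Spred2 at 165, Spry2 at 103, Dusp1 at 95.8, Spry1 at 26.4, Etv5 at 17.5 and Spry4 at 7.8. Spry2 and Dusp1 were the only neighbours in this order whose WT libraries overlapped. In GαqKO, Dusp4 at 428, Spred1 at 296, Dusp5 at 207, Spred2 at 197, Spry2 at 129, Dusp1 at 82.0, Etv5 at 73.1, Spry4 at 54.8 and Spry1 at 10.8 followed Dusp6. There, the libraries of Dusp5 and Spred2 overlapped, as did those of Dusp1 and Etv5. Dusp5 was thus second in WT, while Dusp4 and Spred1 stood above it in GαqKO, and the lowest member was Spry4 in WT and Spry1 in GαqKO. This order depends on the length used. Per kilobase of the whole gene, Dusp6 was again first in both groups, but Dusp4 at 82.2 stood above Dusp5 at 73.9 in WT and Dusp5 at 38.6 above Spred1 at 34.4 in GαqKO, and the lowest members were Etv5 at 2.2 in WT and Dusp1 at 4.82 in GαqKO. The summed level of the 4 phosphatases was 1624.2 ± 56.7 per kilobase in WT and 1253.4 ± 44.3 in GαqKO, with Dusp6 at 47.5% ± 1.4 and 42.8% ± 2.0 of it. For both Spred genes together the level was 367.0 ± 11.1 in WT and 492.5 ± 16.8 in GαqKO.

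The 6 other MAP kinase phosphatases in the table were all called, 3 higher and 3 lower in GαqKO, where 65.8% of all genes tested were called (31.8% higher, 34.1% lower). Dusp7, which like Dusp6 is a cytoplasmic phosphatase of ERK, had 715, 646 and 726 normalized counts in WT and 1485, 1575 and 1499 in GαqKO (log2 fold change 1.13, adjusted p = 9.07e-10 from limma). Dusp9, the remaining gene of that subgroup and X-linked, had 204, 198 and 209 in WT and was listed at 0 in every GαqKO library. That is at least 67.8-fold lower with a floor of 3 normalized counts per library. Because Dusp9 passed the filter only through WT, it could be called in 1 direction only. With at least 10 normalized counts in every library, 2 of these phosphatases were lower in place of 3. Dusp2, a nuclear phosphatase best known from immune cells, had 17.8, 19.4 and 14.2 in WT and 156, 147 and 155 in GαqKO (log2 fold change 3.09, adjusted p = 7.42e-09 from limma). So within the cytoplasmic ERK phosphatases Dusp6 and Dusp9 were lower and Dusp7 was higher. Per kilobase of exon, Dusp6 gave 77.1% ± 1.5 of the summed level of these genes in WT and 59.1% ± 0.6 in GαqKO, and Dusp7 gave 16.5, 16.1 and 18.4% in the WT libraries and 40.8, 41.5 and 40.3% in those of GαqKO. With the length of the whole gene in place of the exons, Dusp6 gave 57.5% ± 2.1 in WT and 35.7% ± 0.6 in GαqKO. Dusp7 gave 33.0% ± 1.8 and 64.3% ± 0.6. Which gene is the larger in GαqKO thus depends on the length used, whereas the directions of these shares did not turn. The summed level of Dusp6, Dusp7 and Dusp9 per kilobase of exon was 999.7 ± 49.7 in WT and 906.8 ± 19.2 in GαqKO. Per kilobase of the whole gene, Dusp6 had 156 in WT and 108 in GαqKO, Dusp7 89.4 and 195, and Dusp9 25.6 and 0. By that length the sum was higher in GαqKO, so its direction depends on the length used. The phosphatases of stress kinases that remained were Dusp10, with a log2 fold change of 0.52, and Dusp8 and Dusp16, with -0.75 and -0.83.

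A further list of 12 genes held feedback proteins, ETS factors and other regulators of growth factor and RAS signalling (Rasa1, Nf1, Lztr1, Pebp1 and Peak1). Of these 11 were matched (all but Spry3), with 7 higher, 3 lower and 1 not called. The one not called was Il17rd (log2 fold change -0.07, adjusted p = 0.554 from limma). Among all genes tested 31.8% were higher and 34.1% lower. Without a trend in the prior spread, or with chromosome medians removed, 1 was lower in place of 3. The other PEA3 factors were among those that rose. Etv4 had 891, 858 and 849 normalized counts in WT and 3027, 3169 and 3005 in GαqKO (log2 fold change 1.82, adjusted p = 9.16e-13 from limma). Etv1 had 13.6, 18.5 and 10.2 in WT and 517, 486 and 454 in GαqKO (log2 fold change 5.05, adjusted p = 5e-11 from limma). All PEA3 factors thus rose, from a summed level of 291.5 ± 7.5 per kilobase of exon to 1074.8 ± 28.1, of which Etv4 gave 93.6% ± 0.1 in WT and 90.0% ± 0.5 in GαqKO and Etv5 gave 6.0% and 6.8% ± 0.7. Peak1, a scaffold pseudokinase downstream of growth factor receptors, had 1024, 988 and 1099 normalized counts in WT and 2351, 2333 and 2187 in GαqKO (log2 fold change 1.14, adjusted p = 3.33e-10 from limma). Spred3, the remaining Spred gene, had a log2 fold change of 0.87 (adjusted p = 1.74e-07 from limma), so that every Spred gene was higher, and it is named outside the naming rule.

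In the cascade itself no gene passed the fold threshold, which 20.7% of all genes tested did. The list of 25 genes ran from proteins upstream of RAS (Frs2, Shc1, Grb2, Gab1, Ptpn11, Sos1 and Sos2) to the RSK kinases. Of these 25 genes 16 were lower, 4 higher and 5 not called, with a median log2 fold change of -0.24. Among all genes tested 34.1% were lower and 31.8% higher. The genes upstream of RAS were all lower except Shc1, which was higher. Mapk3, which encodes ERK1, had 631, 579.9 and 521 normalized counts in WT and 321, 299 and 283 in GαqKO (log2 fold change -0.93, adjusted p = 3.51e-07 from limma). The RAF scaffold Ksr1 had 711, 769 and 823 in WT and 416, 422 and 438 in GαqKO (log2 fold change -0.85, adjusted p = 1.03e-07 from limma). Braf, the RAF kinase most active towards MEK, had 1041, 1095 and 1241 in WT and 653, 619.7 and 608 in GαqKO (log2 fold change -0.84, adjusted p = 1.02e-07 from limma). These had the largest changes of the cascade, and in each the libraries of the groups did not overlap, as in 69.6% of all genes tested.

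Of 16 genes that ERK is known to induce 15 were tested, 9 higher, 5 lower and 1 not called, with a median log2 fold change of 0.41, where 65.8% of all genes tested were called (31.8% higher, 34.1% lower). Like the feedback genes, they went both ways. Ereg, a ligand of the EGF receptor, had 304, 251 and 311 normalized counts in WT and 2964, 2928 and 2858 in GαqKO (log2 fold change 3.34, adjusted p = 2.69e-13 from limma), and 3.9% of its exonic bases are shared with exons of the predicted gene Gm19610. Ccnd1, the gene of cyclin D1, had 1872, 1830.2 and 1799 in WT and 4720.5, 4448 and 4747 in GαqKO (log2 fold change 1.34, adjusted p = 9.03e-12 from limma), with 48.4% of its exonic bases shared with the annotated gene LTO1. Both rose well past the spread of the libraries. The immediate early transcription factor gene Egr1 had 3067, 3187 and 3126 in WT and 1349, 1406 and 1365 in GαqKO (log2 fold change -1.19, adjusted p = 2.68e-11 from limma). The ephrin receptor gene Epha4 had 554, 524 and 523 in WT and 24.4, 37.0 and 27.2 in GαqKO (log2 fold change -4.15, adjusted p = 3.32e-11 from limma).

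**Figure D4:**
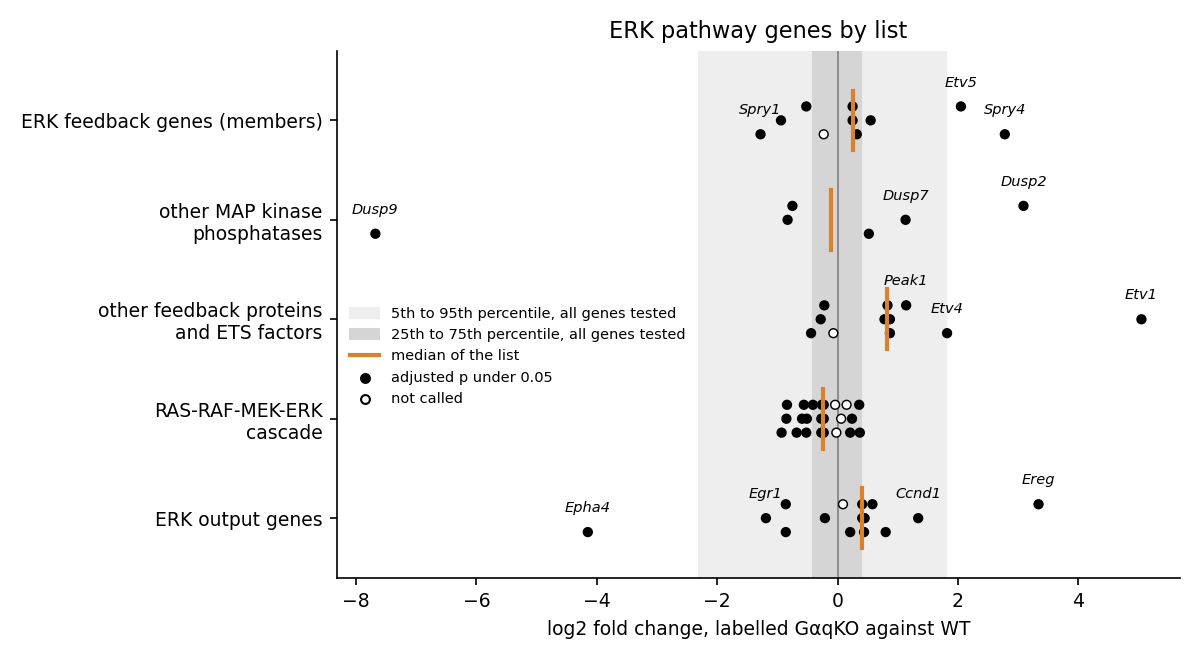
Log2 fold changes, labelled GαqKO against WT, of the 10 feedback genes and of 4 further lists of ERK pathway genes, 1 point per gene (filled where the adjusted p was under 0.05), with an orange line for the median of each list and grey bands for the 5th to 95th and the 25th to 75th percentile of all genes tested. The cascade list, which also holds genes upstream of RAS, stays within a log2 fold change of 1 in size, with a median of -0.24. Each of the other lists has genes far out, such as Spry4 at 2.78, Etv1 at 5.05 and Epha4 at -4.15. The list of other feedback proteins and ETS factors also holds further regulators, such as Rasa1 and Peak1.

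The genes whose values over the 6 libraries were most like those of Spry4 and Spry1 were searched among 9333 genes whose mean was 100 normalized counts or more, by the root mean square difference of log2 values from the WT mean. For Spry4 these were Rhoj at 0.115, Fgfr1 at 0.123 and Sod3 at 0.125, with log2 fold changes of 2.89, 2.70 and 2.69. Fgfr1, which encodes a receptor for fibroblast growth factors, had 1092, 1022 and 1089 normalized counts in WT and 7215, 6730.5 and 6948 in GαqKO. For Spry1 they were Tmsb10 at 0.075, Prr13 at 0.075 and Plpp2 at 0.085, with log2 fold changes of -1.28, -1.27 and -1.28. The measure includes the difference between the groups itself.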

How the data were processed

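RNA from MEFs was sequenced in 6 libraries, and their titles and genotype labels gave the groups (3 WT, 3 GαqKO). The authors selected poly-A RNA, aligned paired-end reads to GRCm39 with Rbowtie2, counted them per gene with featureCounts (Rsubread) on GENCODE release 32 and used DESeq2. The labels name a stranded kit, and the strand setting and tool versions are not given in the sources used here. The authors deposited a normalized signal (each gene's count over 1 size factor per library), whose values summed to between 11392429 and 11483486 per library. For symbols and coordinates, GENCODE release 39 (GRCm39) was used, where 56310 of 56953 identifiers (98.9%) were found.

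The main test was limma 3.58.1 in R 4.3.3 (limma-trend) on log2(normalized count + 1), with p-values adjusted by Benjamini-Hochberg over 14096 genes that reached 10 normalized counts in 3 or more libraries. Fold changes on this scale understate the change of low genes. Calls had an adjusted p under 0.05, and the fold threshold was a log2 fold change of 1 in size. The floor was 3 normalized counts and covers counting error only. Within a tolerance of 0.01, 100% of the values above 0 in 5 libraries were multiples of the value of 1 read. This gave 9853000 to 12229175 reads, and edgeR 4.0.16 and DESeq2 1.42.0 were run on them as alternatives. The edgeR test called 8875 of 14433 genes, and DESeq2 called 7433 of 25619 with a fold change, so these counts cover unlike sets of genes. The values of GαqKO replicate 3 were also multiples of 1 step (100%), but that step is so close to 1 that it could not be told from rounding by the check used, and this library was left out of the count tests.

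The members and gene lists were chosen with earlier results of these data known, as were the subgroups of cytoplasmic ERK phosphatases and PEA3 factors. The genes named were all members, the genes of the other phosphatase, feedback and ERK-induced lists past both thresholds, the 3 cascade genes with the largest change, the 3 genes most like the members with the largest rise and fall (predicted Gm and Rik names left out), and Gnaq and Gna11. Spred3, Il17rd, the phosphatases under the fold threshold and single markers were named after their values were seen. The alternatives were TMM scaling, other filters and pseudocounts (0.5 and 5), no trend, treat, a replicate block, the count tests, each library left out, chromosome medians removed (added after seeing the data) and gene spans for exon lengths. Scripts were tested on simulated data. Python 3.11.15 was used with numpy 2.4.6, pandas 2.3.3, scipy 1.17.1 and matplotlib 3.10.9.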

Additional observations from a re-analysis of the deposited data

How the results depend on the processing

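Of 160 log2 fold changes of the members under the alternatives, 155 kept their direction and their side of the threshold. Dusp4 was no longer called without a trend in the prior spread (log2 fold change 0.25, adjusted p = 0.0577 from limma) or in DESeq2 (0.20, adjusted p = 0.0749), and it turned to -0.05 (adjusted p = 0.586 from limma) with chromosome medians removed, an alternative added after seeing the data. Over all its alternatives its adjusted p ran from 0.000423 to 0.586. That of Dusp1 ran from 0.0435 to 0.307. Leaving out each library in turn gave log2 fold changes from -0.30 to -0.12 for Dusp1 and from 0.19 to 0.33 for Dusp4, and 3 to 4 members called lower. With the replicate number as a block, Dusp1 was called (log2 fold change -0.23, adjusted p = 0.0435 from limma), so 4 members were lower in place of 3, and no other member's call changed. The replicate numbers did not pair the samples: the deviations of same-numbered libraries correlated at -0.045, -0.148 and -0.064 over 14096 genes. In the treat test 0 members were lower past the fold threshold, in place of 1. Of the further feedback proteins, ETS factors and other regulators 1 was lower, in place of 3, without a trend and with chromosome medians removed. By gene span, Spry1 gave 26.5% of the Sprouty level in WT and 9.0% in GαqKO, Spry2 70.4% and 72.9%, Spry4 3.1% and 18.2%, and Dusp6 49.0% of the Dusp level in WT. Over all genes, 1432 were higher and 1486 lower past the fold threshold, against 847 and 1027 in the treat test. With at least 10 normalized counts in every library these were 831 and 765, out of 12054 genes in place of 14096. Another scaling moved the median of all genes from -0.012 to -0.003. The cause of these differences was not tested.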

Other observations

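The spread between libraries of the members was set beside that of other genes. Among 11193 genes averaging 50 normalized counts or more, the median coefficient of variation was 6.16% in WT and 5.27% in GαqKO. Members ran from 1.02% (Spred1) to 8.75% (Dusp1) in WT and from 1.75% (Dusp6) to 14.2% (Spry1) in GαqKO. GαqKO replicate 2 was the lowest of the GαqKO libraries for 4 of the 10 members, Dusp1, Dusp4, Spry2 and Spry4, against 34.8% of all genes tested. With pseudogenes and predicted genes overlapping several loci, the shares of Dusp5, Dusp6 and Spry1 reads that belong to Gm50394, Gm34921, Gm56965, Gm56968 and Gm42922 were not tested.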
